A study of Arabidopsis thaliana with 12 samples.

Results

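SIS and MAMI are 2 Arabidopsis thaliana genes named for the stress that induces them, and their messenger RNA was followed in wounded and untreated plants. The members were the probes that name SIS or MAMI alone in the array's probe annotation, after names were updated through the gene identifier. Each gene had 1 such probe, so 2 of the 691 genes with a single-gene probe, or 2 of all 3439 probes, were described. One further probe lists SIS together with other genes, 3 in all, and was left out because its signal cannot be given to 1 gene. SIS is the locus AT5G02020 and MAMI the locus AT5G54110, each with 2 RefSeq transcripts.

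The wounded group was wild-type Columbia 0, the common laboratory accession, mechanically wounded by cutting the leaves and measured 2 days later (6 arrays). The untreated group was the same wild type without wounding (6 arrays), and the labels give it no day of harvest, so harvest time and wounding cannot be told apart. No transgene or mutant allele is named for either group. The labels do not say which organ gave the RNA, nor whether replicate arrays stand for separate plants or for repeats of 1 extract. The p-values therefore weigh the difference against array-to-array spread, which may be technical.

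SIS stands for salt-induced serine-rich protein, a protein linked to salt tolerance in Arabidopsis. MAMI stands for membrane-associated mannitol-induced protein. It resembles the VAP27 proteins, which sit in the membrane of the endoplasmic reticulum and hold it to the plasma membrane at contact sites. High salt and mannitol both draw water from plant cells, and many genes induced by them also respond to abscisic acid, the hormone of water shortage. A cut through a leaf also exposes cells to water loss, beside the jasmonate signals that wounding is known for.

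The arrays were not all alike. The mean deposited intensity per array was 0.983 to 1.09, and 4.77% to 5.90% of its values were exactly 0; both members had values above 0 on all 12 arrays. Over all probes wounded replicate 4 correlated with the other arrays at r between 0.430 and 0.500, whereas among the other 11 arrays r ran from 0.876 to 0.985. Within the groups 5 pairs of arrays were alike (r between 0.953 and 0.985), namely wounded 2 with 3 and 5 with 6, and untreated 1 with 2, 3 with 4 and 5 with 6. Each result is therefore given over 12 arrays and over the 11 without wounded replicate 4, and the alike pairs were also treated as a block. Of 11 markers of green tissue, guard cells, epidermis, phloem, xylem and root, 2 had a single-gene probe. LHB1B2, a light-harvesting chlorophyll protein, had a mean normalized log2 intensity of 1.97 in wounded and 2.65 in untreated plants over 12 arrays (difference -0.68 ± 0.64 SE, limma adjusted p = 0.643). Over 11 arrays its wounded mean was 1.74 and the difference -0.92 ± 0.66 (adjusted p = 0.454). PRK, the phosphoribulokinase of the Calvin cycle, had 0.60 in wounded and 0.18 in untreated plants (difference 0.41 ± 0.27, limma adjusted p = 0.531), and over 11 arrays a wounded mean of 0.33 and a difference of 0.15 ± 0.10 (adjusted p = 0.441). Both green-tissue markers thus had measured values, although no signal over background was given, and neither difference passed. The markers of guard cells, epidermis, vessels and root were not measured by a single-gene probe, so cell makeup could not be followed. In such whole samples, fewer cells of a type and less RNA per cell cannot be told apart.

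The first comparison asked whether the salt-induced gene SIS differed 2 days after wounding. Its signal was lower on every wounded array than on any untreated array after quantile normalization, but it did not pass the threshold over all probes. As deposited, SIS had intensities of 0.512, 0.343, 0.367, 0.128, 0.604 and 0.672 in wounded replicates 1 to 6, on the linear scale of the authors. The untreated replicates 1 to 6 had 0.917, 0.876, 0.763, 0.717, 0.760 and 0.665 on that scale. Wounded replicate 4 was lowest by far, wounded 2 and 3 came next, and wounded replicate 6 lay just above untreated replicate 6, so the groups overlapped by that 1 array before normalization.

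After quantile normalization, which gives every array the same distribution of values, SIS had log2 intensities of -0.86, -1.12, -0.997, -3.13, -0.84 and -0.71 in wounded replicates 1 to 6. The untreated replicates 1 to 6 had -0.49, -0.57, -0.46, -0.53, -0.43 and -0.65. The highest wounded array, replicate 6, then lay below the lowest untreated one, also replicate 6, and the groups did not overlap. Such separation was found for 108 of the 3034 probes measured on all 12 arrays (3.56%), and for 182 of 3087 (5.90%) over the 11 arrays, so SIS shares it with many probes.

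The mean log2 intensity of SIS was -1.28 ± 0.92 in wounded and -0.52 ± 0.08 in untreated plants over 12 arrays (SD, n = 6 and 6). The log2 difference was -0.75 ± 0.35 (SE, limma adjusted p = 0.433), a fold of 0.593 with a 95% interval of 0.348 to 1.01. Without wounded replicate 4 the wounded mean was -0.90 ± 0.16 (SD, n = 5) and the difference -0.38 ± 0.10 (SE, limma adjusted p = 0.0701), a fold of 0.767 with an interval of 0.658 to 0.894. Over all probes the test called 0 of 3233 (0%) on 12 arrays, where 376 (11.6%) had an unadjusted p under 0.05, and 71 of 3203 (2.22%) on 11 arrays, where 667 (20.8%) had one. By p-value SIS stood at place 398 of 3233 over 12 arrays and at place 126 of 3203 over 11.

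An exact two-sided permutation test on SIS alone gave an unadjusted p of 0.00216 over 12 arrays and of 0.00216 over 11, in both cases the smallest it can give. Over 12 arrays, with 6 against 6, any probe whose groups do not overlap gets this p. This p takes no account of the other probes, and SIS was picked with earlier results known. On the main values such a test was run for SIS, for MAMI and for their difference, 3 on each set of arrays. More were run under other scalings, with the alike arrays averaged and, for the difference, with single arrays left out. For SIS as deposited the exact p was 0.00433 on both sets of arrays. Unless the alike arrays are averaged, the permutation test counts them as separate samples. With the alike pairs averaged, the SIS values ran from -3.13 to -0.77 over 4 wounded units and from -0.54 to -0.50 over 3 untreated units (exact permutation p = 0.0857). Without wounded replicate 4 the wounded units ran from -1.06 to -0.77, and the exact p was 0.10, the smallest that 3 against 3 units allow. Averaging arrays within a group cannot undo a separation that is already there, so the separated averages are no further check. Over 12 arrays the smallest exact p was 0.0286, and over the 11 arrays the units were too few for a p under 0.05. When limma took each alike pair as a random block, the difference over 12 arrays was -0.93 ± 0.49 (SE, limma adjusted p = 0.931). Over 11 arrays it was -0.38 ± 0.16 (SE, limma adjusted p = 0.619).

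After quantile normalization SIS was among the steadier probes in untreated plants. As deposited its untreated SD was 0.17 on the log2 scale, and with each array centred on its median it was 0.09. The quantile-normalized SD was 0.08, against a median of 0.25 over 3175 probes, and 3.28% of the probes had a smaller SD. Among the 5 wounded arrays without replicate 4 its SD was 0.16, against a median of 0.31, with 15.8% of probes smaller. All 6 wounded arrays together gave SIS an SD of 0.92, against a median of 0.62 over 3068 probes. Within the alike pairs the 2 SIS values differed by 0.07 to 0.22 on the log2 scale.

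The deposited level of SIS moved with the median of the arrays, which differed although their means were nearly equal. Array medians on the log2 scale ran from -1.59 to -1.05 in the wounded group and from -1.10 to -0.77 in the untreated group before normalization. Over the 11 arrays the deposited log2 value of SIS correlated with the array median at r = 0.96, a description over arrays that share pairs, and one that carries the treatment, since the medians were lower in most of the wounded group. The log2 difference of SIS as deposited was -1.01 over 12 arrays, of which -0.69 remained relative to the median change of all probes, and -0.69 over 11 arrays, of which -0.38 remained. Centring each array on its median gave -0.66 over 12 arrays and -0.35 over 11, with 1 wounded array inside the untreated range in both cases. SIS was thus lower in wounded plants under each of these scalings, with a size that depended on the scaling.

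**Figure D1:**
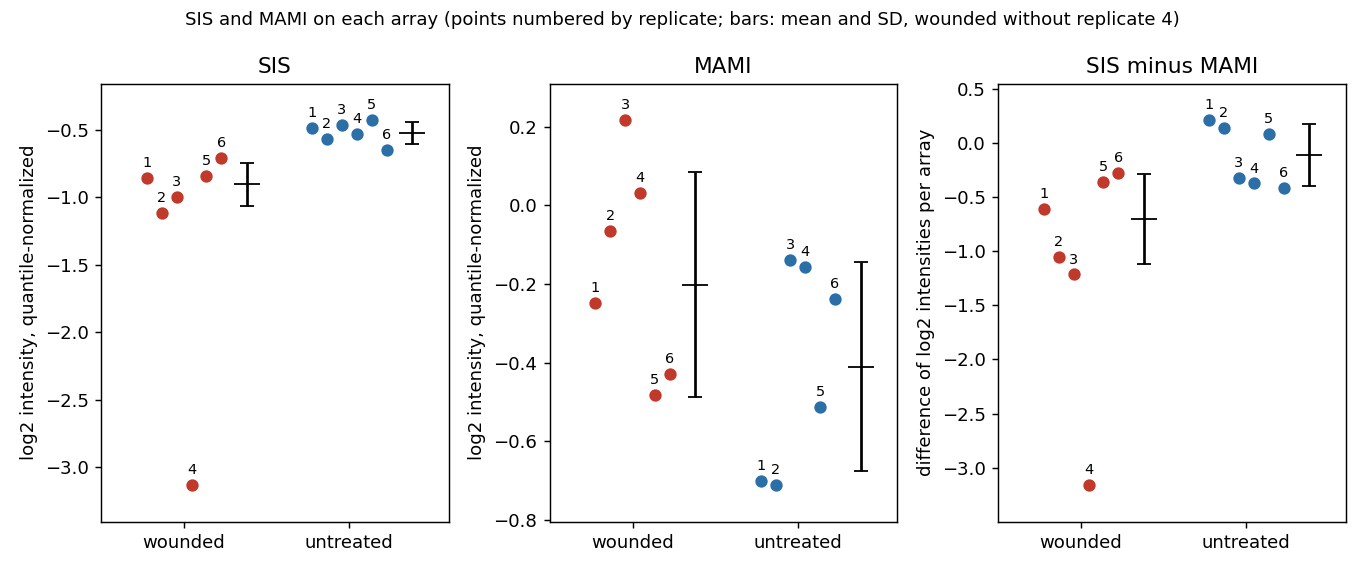
Quantile-normalized log2 intensities of SIS (left) and MAMI (middle) and the log2 difference SIS minus MAMI (right) on each array, wounded arrays in red and untreated ones in blue, numbered by replicate. Bars give the mean and SD, without replicate 4 in the wounded group. All wounded SIS values lie below the untreated ones, with replicate 4 at -3.13, while the MAMI groups overlap.

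The second comparison asked the same of the mannitol-induced gene MAMI. No difference passed the test, the groups overlapped, and the direction of the small difference depended on the scaling. As deposited, MAMI had intensities of 0.808, 0.760, 0.954, 0.772, 0.778 and 0.812 in wounded replicates 1 to 6. The untreated replicates 1 to 6 had 0.787, 0.781, 0.960, 0.939, 0.719 and 0.873 on the same scale. All wounded values lay within the untreated range, and wounded replicate 4, which stood far apart for SIS, lay among the others for MAMI.

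After quantile normalization MAMI had log2 intensities of -0.25, -0.07, 0.22, 0.03, -0.48 and -0.43 in wounded replicates 1 to 6. The untreated replicates 1 to 6 had -0.70, -0.71, -0.14, -0.16, -0.51 and -0.24. Wounded replicates 2, 3 and 4 then lay above all untreated arrays, and the other 3 lay among them. The mean was -0.16 ± 0.27 in wounded and -0.41 ± 0.27 in untreated plants (SD, n = 6 and 6).

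The log2 difference of MAMI was 0.25 ± 0.18 (SE, limma adjusted p = 0.559), a fold of 1.19 with a 95% interval of 0.904 to 1.56. Over 11 arrays it was 0.21 ± 0.17 (adjusted p = 0.507), a fold of 1.16 with an interval of 0.899 to 1.49. The exact permutation test gave an unadjusted p of 0.143 over 12 arrays and 0.232 over 11. Both intervals include no change, and their ends leave room for a lower as well as a higher level in wounded plants. About as many probes had larger as smaller changes, with 57.3% of probes beyond MAMI in size over 12 arrays and 52.4% over 11. Without further scaling the difference was -0.047 over 12 arrays and -0.033 over 11, and relative to the median change of all probes it was 0.27 and 0.28 in those same fits.

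Much of the spread of MAMI within a group lay between the alike pairs. Its untreated SD of 0.27 was close to the median of 0.25 over all probes. The means of the 3 untreated pairs ran from -0.71 to -0.15, while the 2 values of a pair differed by 0.01 for untreated 1 and 2, 0.02 for untreated 3 and 4 and 0.27 for untreated 5 and 6. In the wounded group the pair values differed by 0.28 for wounded 2 and 3 and by 0.05 for wounded 5 and 6. With the pairs averaged, the wounded units ran from -0.46 to 0.08 and the untreated ones from -0.71 to -0.15 (exact permutation p = 0.257 over 4 and 3 units).

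**Figure D2:**
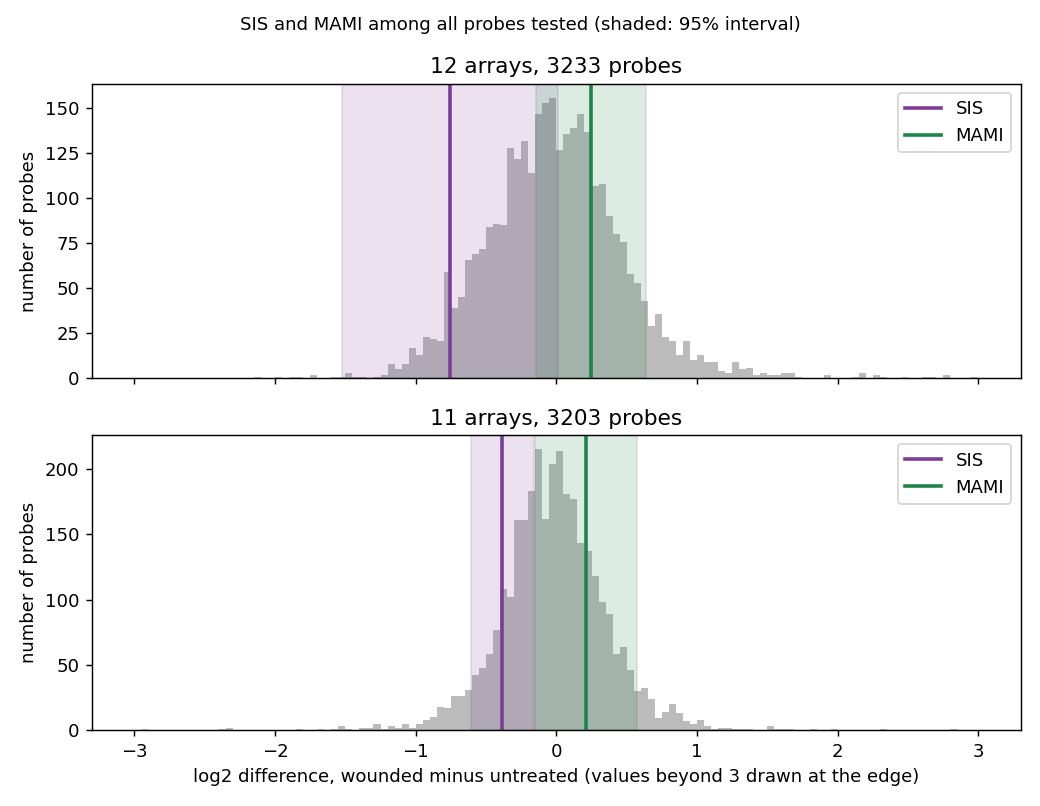
Histograms of the log2 difference, wounded minus untreated, over all probes tested on 12 arrays (top, 3233 probes) and 11 arrays (bottom, 3203 probes); vertical lines mark SIS and MAMI and shading their 95% intervals. SIS is at -0.75 over 12 arrays and at -0.38 over 11; MAMI is at 0.25 and 0.21.

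SIS and MAMI did not show a common change. The difference SIS minus MAMI per array takes out any shift that an array gives to both probes alike, but not a shift that differs between them. As deposited, over 11 arrays, SIS correlated with the array median at r = 0.96 and MAMI at r = -0.25. The difference may therefore still carry effects of the array. SIS minus MAMI was -0.61, -1.05, -1.21, -3.16, -0.36 and -0.28 in wounded replicates 1 to 6 on the normalized log2 scale. The untreated replicates 1 to 6 had 0.21, 0.14, -0.32, -0.37, 0.09 and -0.41. Wounded replicates 5 and 6 lay inside the untreated range and the other 4 below it.

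The change of SIS was lower than that of MAMI by a log2 difference of -1.001 ± 0.45 over 12 arrays (SE, n = 6 and 6, exact permutation p = 0.0195, unadjusted) and of -0.59 ± 0.22 over 11 (n = 5 and 6, p = 0.0325, exact permutation). Log2 values as deposited gave -0.96 over 12 arrays and -0.66 over 11, with exact permutation p-values of 0.0195 and 0.0303. This difference was not past the threshold when each alike pair was a random block, where limma's unadjusted p was 0.0751 over 12 arrays and 0.0631 over 11. Over 12 arrays the exact permutation p became 0.0519 without untreated replicate 1, 2 or 5, each left out alone. Over 11 arrays it ran from 0.0619 to 0.0714 without wounded replicate 1, 2 or 3 or untreated replicate 1, 2 or 5. Across arrays the normalized values of SIS and MAMI correlated at r = -0.49 over 12 arrays and -0.56 over 11. This is a description over arrays that share pairs and treatment and whose medians differed before normalization.

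**Figure D3:**
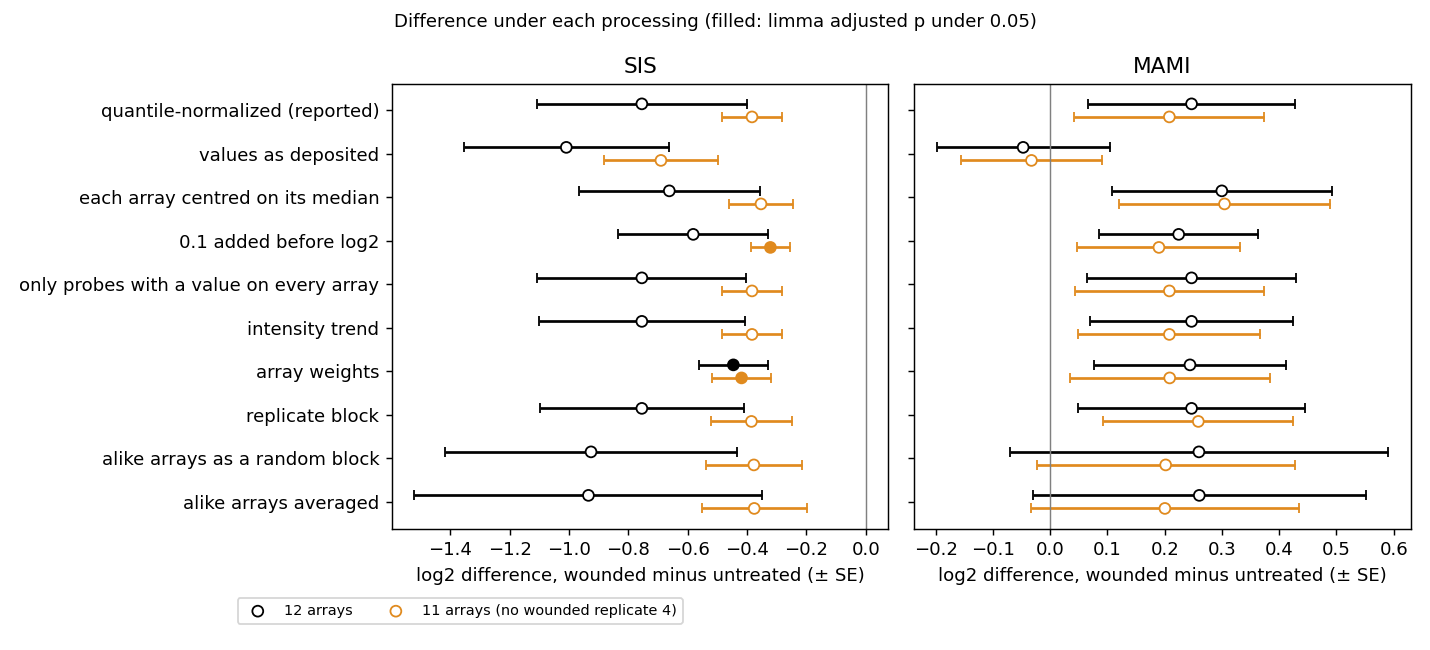
Log2 difference, wounded minus untreated, with its SE for SIS (left) and MAMI (right) under each processing, over 12 arrays in black and 11 arrays in orange; filled points had a limma adjusted p under 0.05. SIS is below 0 in all of them and MAMI is below 0 only for the values as deposited.

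The filled points in the plot of differences by processing show where SIS passed the threshold. It passed with array weights, which count poorly fitting arrays less, at a log2 difference of -0.45 over 12 arrays (limma adjusted p = 0.0438) and -0.42 over 11 (adjusted p = 0.0421). It also passed over 11 arrays with 0.1 added to the deposited values before log2 (-0.32, adjusted p = 0.0264). These settings called more probes in general. Array weights called 179 of 3233 probes over 12 arrays and 119 of 3203 over 11. The added 0.1 called 137 of 3439 over 11 arrays. The main fits called 0 of 3233 and 71 of 3203. MAMI passed under none of the processings drawn there, with adjusted p-values of 0.358 or more.

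Relatives of the members were nearly absent from the single-gene probes. Of 8 genes of the VAP27 family, to which MAMI was assigned here, 2 had a single-gene probe, MAMI itself and AT4G00170. AT4G00170, a VAP27 relative, had a mean log2 intensity of -0.92 in wounded and -0.97 in untreated plants over 12 arrays (difference 0.04 ± 0.28 SE, limma adjusted p = 0.951). Over 11 arrays its wounded mean was -0.72 and the difference 0.25 ± 0.21 (adjusted p = 0.532), and its sign turned with the values as deposited. Of the 2, 0 passed in either direction, where 0% of all probes were called over 12 arrays and, over 11, 0.968% were called higher and 1.25% lower, so a count of 0 is near that background. Their median log2 difference was 0.14 over 12 arrays and 0.23 over 11, beside -0.02 for all probes in both.

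Of 45 genes of salt, osmotic and abscisic acid responses, 2 had a single-gene probe, SIS and XERICO. XERICO, a RING finger gene whose activity raises abscisic acid, had a mean log2 intensity of 2.08 in 5 wounded and 1.32 in 6 untreated arrays, and it rose by 0.77 ± 0.14 (SE, limma adjusted p = 0.0266) over the 11 arrays. Over 12 arrays its difference was 0.65 ± 0.19 (adjusted p = 0.244). When each alike pair was a random block the call over 11 arrays was lost (adjusted p = 0.390), as it was with the replicate number as a block (adjusted p = 0.240) and without wounded replicate 2 or 3 or untreated replicate 1, 2, 3 or 4 (adjusted p between 0.0566 and 0.0683). So 1 of these 2 genes was called higher over 11 arrays, where 0.968% of all probes were called higher, and 0 were called lower, where 1.25% of all probes were. Of 8 wound and jasmonate genes 0 had a single-gene probe, so the known wound response was not analysed here.

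The genes whose pattern over arrays was most like SIS were picked by Pearson's r of the normalized values over the 11 arrays, out of 599 genes with values on all 12. They were AT1G54500, a chloroplast rubredoxin (r = 0.92), AT1G27660, a basic helix-loop-helix family gene (r = 0.90), AT1G17160, a ribokinase-type sugar kinase (r = 0.90), LAS, a GRAS family regulator of side shoots (r = 0.89), and AGL54, a MADS-box gene (r = 0.89). The median r of all these genes with SIS was 0.12. All 5 had lower mean values in the wounded group, with log2 differences from -0.74 for AGL54 to -0.53 for LAS over 11 arrays. Such lower means follow from picking by r with SIS over these same arrays, so they are no separate result. As for SIS, wounded replicate 4 was the lowest array, and r over 12 arrays lay between 0.88 and 0.97. With arrays centred on their medians instead, r was 0.62 for AT1G54500 and 0.43 for AT1G17160, against 0.89 to 0.91 for the other 3, so the likeness of these 2 depended on the scaling.

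MAMI was most like AT4G20690 (r = 0.95), the pentatricopeptide repeat gene AT3G26630 (r = 0.92), AT2G25830, a YebC-related gene (r = 0.92), AT-HF, an enzyme of histidine synthesis (r = 0.88), and AT4G01810, a Sec23/Sec24 family gene (r = 0.87). The median r with MAMI was -0.09. The log2 differences of these 5 genes ran from 0.05 for AT4G20690 to 0.34 for AT4G01810 over 11 arrays, with limma adjusted p-values of 0.370 or more. Like MAMI, by which they were picked, all 5 lay below their untreated means on untreated 1 and 2. They lay above those means on wounded 2 and 3 and on untreated 3 and 4. The other arrays varied by gene. Before normalization untreated 1 and 2 had the highest array medians (both -0.77 on the log2 scale) and wounded 2 and 3 the lowest (both -1.59). Deposited MAMI correlated with the array median at only r = -0.25 over 11 arrays. Whether the scaling shaped the pattern that these genes share with MAMI was not tested. AT-HF was higher on untreated 5 and 6 (0.33 and 0.42 above its untreated mean) than on untreated 3 and 4 (0.27 and 0.24). Including wounded replicate 4 lowered r to between 0.27 and 0.76. On that array MAMI and AT-HF lay above their untreated means and the other 4 genes below theirs.

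**Figure D4:**
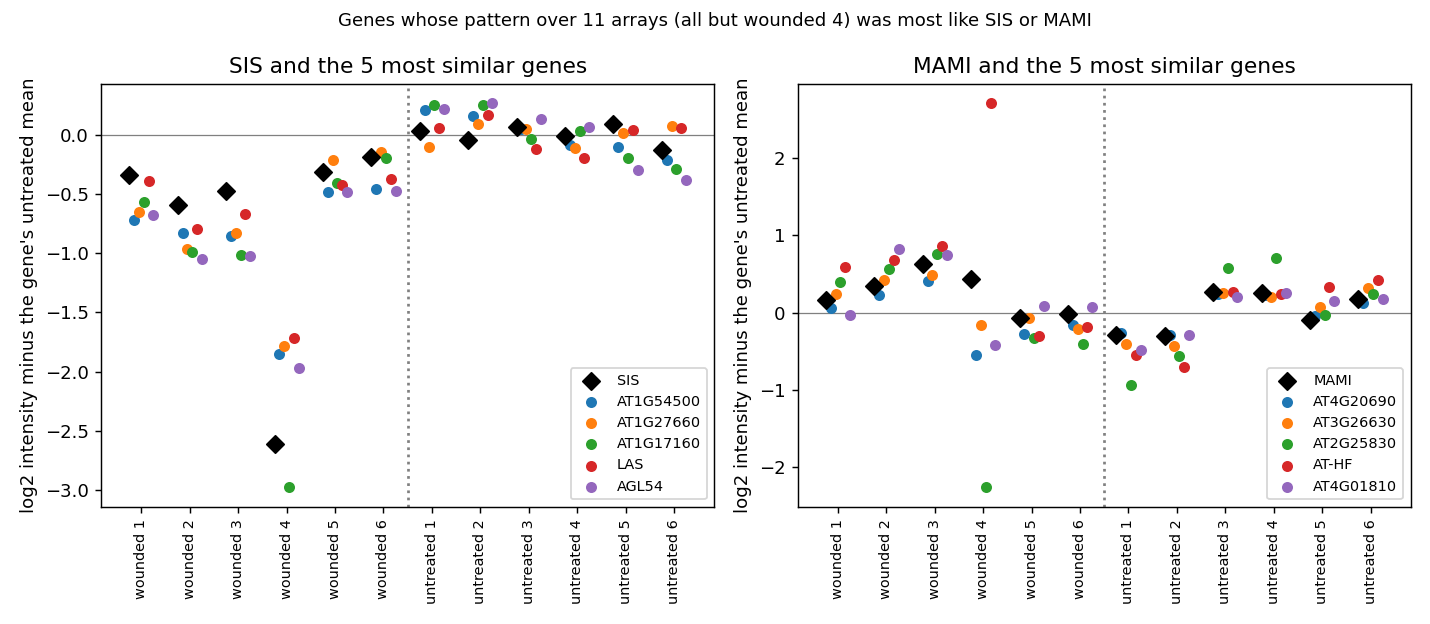
Normalized log2 intensity minus each gene's untreated mean on every array, for SIS (left, black diamonds) and MAMI (right, black diamonds) with the 5 genes most like each over the 11 arrays other than wounded 4 (coloured circles). The genes like SIS lie below their untreated means on wounded arrays, which follows from how they were picked, and lowest on wounded 4. AT1G17160 on wounded 6 (-0.20) still lies above its value on untreated 6 (-0.29). Those like MAMI vary within both groups.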

How the data were processed

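Linear intensity values of 3439 probes on 12 arrays, with a mean near 1 per array, are what the authors deposited. Not given in the sources used here were the array type, background correction, scaling method and genome build, and no coordinates are therefore printed. No signal over background was given. The number of arrays limits the precision. Groups and replicate numbers came from the sample titles. Probes were named by GEO's platform annotation, which may be outdated, and names were updated through gene identifiers (690 of 692 single-gene probes matched the RefSeq table of TAIR10.1); 870 probes name several genes and 1877 have none listed.

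Values of 0 were treated as missing, the rest put on the log2 scale and quantile-normalized. Probes with at least 4 values in each group were tested in limma 3.58.1 (R 4.3.3; lmFit, eBayes, two-sided, group as the only term). Benjamini-Hochberg adjustment spanned all probes tested, with a threshold of 0.05. Intervals are at 95%. The difference SIS minus MAMI was tested by an exact permutation test only; its random block and array weights used limma with unadjusted p. Averaged pairs needed 3 values in each group. The fit was tested on simulated data. Figures used matplotlib 3.10.9 in Python 3.11.15.

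The members, gene lists, treatment of wounded replicate 4 and alike pairs were chosen with earlier results of these data known. The rule for named genes took SIS and MAMI, every listed gene with a single-gene probe, and for each member the 5 most alike genes by Pearson's r over 11 arrays. Alternatives covered scaling, an offset of 0.1, complete probes, an intensity trend, array weights, the replicate number as a block, the alike arrays as a block or averaged, and leaving out each array. All but averaging were run for XERICO, AT4G00170, LHB1B2 and PRK too, added later; the likeness values were recomputed only over 12 arrays and with median centring. The probe naming SIS among several genes was left out.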

Additional observations from a re-analysis of the deposited data

Results flagged for a closer look

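Among the 6 wounded arrays, replicate 4 lay far from the other 5 for SIS, at -3.13 on the normalized log2 scale, with a gap to its nearest neighbour of 0.831 of the group's range, past the limit of Dixon's test at 95% for 6 values. The same array was lowest for SIS minus MAMI (-3.16, gap 0.675), for AT4G00170 (-1.97, gap 0.680) and for XERICO (1.41, gap 0.821), and highest for PRK (1.93, gap 0.842). MAMI was not so placed in either group. Chance marks about 1 in 20 groups, whereas 37.0% of 3068 probes had a stray wounded array, which was replicate 4 for 1094 of 1136.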

How the results depend on the processing

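SIS kept a negative log2 difference under all alternatives run, from -1.01 to -0.45 over 12 arrays and from -0.69 to -0.32 over 11, and passed the threshold only with array weights (-0.45 and -0.42) and, over 11 arrays, with 0.1 added before log2 (-0.32). Leaving out single arrays gave -0.87 to -0.38 over 12 and -0.43 to -0.33 over 11. MAMI never passed; its difference was -0.047 and -0.033 as deposited, where all probes had a median change of -0.32 and -0.31, and 0.17 to 0.31 and 0.10 to 0.28 with single arrays left out. SIS minus MAMI missed the threshold with the replicate number as a block (-1.001 over 12 arrays, -0.64 over 11), with each alike pair as a random block (-1.19 and -0.58) and averaged (-1.19 and -0.58), and ranged from -1.17 to -0.59 and -0.70 to -0.46 with single arrays left out. Over 11 arrays the block leaves 5 complete pairs and averaging 3 against 3 units, where the smallest exact p is 0.0625 and 0.10. Neither could therefore pass the threshold. The exact permutation p was 0.125 with the block and 0.20 with averaging, each above its smallest value. Over 12 arrays the block gave an exact p of 0.0625 and averaging one of 0.171, and the cause was not tested, nor that of the losses with the random block. Over 12 arrays 7 probes passed as deposited, 1 with 0.1 added, 179 with array weights, and 0 to 71 with single arrays left out, 71 being without wounded replicate 4. In place of 71 over 11 arrays, 0 passed with the replicate block, the random block or averaging, 137 with 0.1 added, 119 with array weights, and 2 (without untreated 4) to 125 (without wounded 1) with single arrays left out. The split of 31 higher and 40 lower became 48 and 24 after median centring and 6 and 81 as deposited. Same-numbered arrays deviated together at r between -0.34 and 0.09, and 0 of 6 correlated best with their own number, so the numbers were not taken as pairs. The deviations were from group means that include wounded replicate 4, so this check cannot settle whether the numbers are pairs. The sign turned as deposited for AT4G00170 (-0.24 over 12 arrays, -0.050 over 11) and PRK (-0.038 over 11), and over 12 arrays for AT4G00170 with the random block (-0.079) and without wounded 2 or 3 or untreated 1 or 2 (-0.10 to -0.021, with -0.064 and -0.042 between); single arrays left out gave -0.10 to 0.25.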
